A study of Mus musculus with 4 samples.

Results

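Molecular chaperones and heat shock proteins were examined in regulatory CD4 T cells of immunized mice. The members were the genes whose symbols name the Hsp70 (Hspa), small heat shock (Hspb), mitochondrial chaperonin (Hspd and Hspe), Hsp110 (Hsph), Hsp90 and J-protein (Dnaja, Dnajb and Dnajc) families, together with Tcp1, Hsf1, Hsf2, Bag3, Stip1, Ahsa1 and Cct2 to Cct8. They were taken from probes that the platform annotation gives exactly 1 gene symbol, with the brightest probe standing for a gene. This left 81 of the 22180 genes named in this way, on 91 probes. Of the 81 members, 70 had a mean over the arrays above the median of all genes (5.91 on the log2 scale), a limit called the expression limit here, and the other 11 are named below. Hsf1 and Hsp90ab1 were not analysed here, and Dnaja1, Dnajb8, Dnajc17, Dnajc19, Dnajc19-ps and Hspb2 lie only on probes annotated to several genes and were left out.

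The groups were KO TFR, WT TFR, KO non-TFR and WT non-TFR cells, with 1 Affymetrix Mouse Gene 2.0 ST array each. The KO mice were Prdm1fl/flFoxP3YFP-Cre, in which Cre made by Foxp3-expressing cells targets the floxed alleles of Prdm1, the gene of the transcriptional repressor Blimp-1. The WT mice were FoxP3YFP-Cre and therefore carried the same reporter and Cre. All were immunized with NP-OVA in CFA and taken 7 days later. TFR cells (follicular regulatory T cells) were sorted as PD1+CXCR5+YFP+CD4+, and non-TFR cells as CXCR5-YFP+CD4+. How old the mice were, and how many contributed to each array, is not given in the sources used here. With 1 array per group no difference of a pair of arrays below has a test or a replicate check, and "higher" and "lower" describe these arrays. Tests come only from a fit over all 4 arrays, given once for each factor. Levels are log2 signals after quantile normalization, and differences are log2 differences of a pair of arrays. In sorted bulk RNA, fewer cells with a transcript and less transcript per cell cannot be told apart.

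Prdm1 itself had a level of 7.32 in KO and 8.21 in WT TFR cells, and of 7.59 in KO and 7.80 in WT non-TFR cells. It was thus lower in the KO array of both populations, with KO minus WT differences of -0.89 in TFR and -0.21 in non-TFR cells, although the part of the transcript that the probes cover is not given. Among Treg markers Foxp3, Il2ra, Ctla4, Ikzf2, Cd4 and Cd3e, all 6 lay above the expression limit, with a median level of 11.21 in KO and 11.53 in WT TFR cells and of 11.76 in KO and 11.64 in WT non-TFR cells. Of 7 myeloid markers 6 lay below the limit in their mean, among them Lyz2 and Csf1r. Of 6 measured B cell markers 4 did, namely Ms4a1, Cd79a, Pax5 and Blnk, while Cd22 and Cd79b lay above it. The median level of the B cell markers was 5.73 in KO and 5.64 in WT TFR cells and 5.41 in KO and 5.37 in WT non-TFR cells, and that of the myeloid markers was 5.26 in KO and 5.21 in WT TFR cells and 5.21 in KO and 5.35 in WT non-TFR cells. Above the limit Cd22 differed most, at 9.27 in KO and 8.27 in WT TFR cells and 7.04 in KO and 5.99 in WT non-TFR cells, and Cd68 was 1.20 higher in KO than in WT TFR cells. Of the plasma cell markers 3 of 5 and of the CD8 and NK markers 1 of 4 lay above the limit. That 1 was Cd8b1, with TFR minus non-TFR differences of -0.69 in WT and -0.56 in KO mice. Below the limit in the mean, Pax5 (0.64 and 0.92), Sdc1 (0.79 and 0.82) and Klrb1c (1.08 and 0.37) were higher in TFR cells. In each genotype 3 of 6 B cell and 2 of 4 CD8 and NK markers were higher there. Of 5 plasma cell markers 4 were higher in WT and 3 in KO mice. Of the 7 myeloid markers 6 were higher in TFR cells in WT mice (median difference 0.23) and 5 in KO mice (median 0.11). Among them Cd68, the only myeloid marker above the limit, differed by 0.50 in WT and 1.58 in KO mice. The gate genes Cxcr5, Pdcd1 and Bcl6 were higher on the TFR array of both genotypes, and also higher in KO than in WT, with KO minus WT differences in TFR and non-TFR cells of 0.87 and 0.84 for Cxcr5, 0.82 and 1.52 for Pdcd1, and 1.12 and 0.25 for Bcl6. For Foxp3 they were -0.49 and -0.02, and for Il2ra -0.67 and 0.07. The part of other cell types, and of these gate and Treg genes, in the differences below was not tested.

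Chaperones bind unfolded or partly folded proteins and help them reach or keep their native shape. Hsp70 proteins bind and release short hydrophobic stretches in a cycle driven by ATP. J-proteins bring them substrates and stimulate ATP hydrolysis, whereas Hsp110 proteins and BAG proteins exchange the nucleotide. Hsp90 acts later on a set of client proteins such as kinases and steroid receptors. The ring-shaped chaperonins enclose a substrate: TRiC in the cytosol folds actin and tubulin, and Hspd1 with its lid Hspe1 works in mitochondria. When proteins unfold, the transcription factor Hsf1 binds heat shock elements, repeats of the unit NGAAN in alternating orientation, and induces genes such as Hspa1a, Hspa1b, Dnajb1 and Hsph1. T cells also raise chaperone expression on activation, and the cell preparation before a sort can itself induce stress genes.

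The promoters of the pair of genes with the highest genotype differences in TFR cells are shown first, with those of 2 members that carry the same motif and differed little. Other members with the motif differed more, among them Hspb1, Dnajc10, Dnaja4 and Hspb6, and their promoters are not shown. The 250 bases before the start are given from RefSeq (GRCm38.p6), 5′ to 3′ on the strand of the gene, and capitals mark every match to GAANNTTC or TTCNNGAA, a core of 2 alternating units. These forms are their own reverse complements, so both strands are searched at once.
Hspa1a, chr17:34972157-34972406, minus strand: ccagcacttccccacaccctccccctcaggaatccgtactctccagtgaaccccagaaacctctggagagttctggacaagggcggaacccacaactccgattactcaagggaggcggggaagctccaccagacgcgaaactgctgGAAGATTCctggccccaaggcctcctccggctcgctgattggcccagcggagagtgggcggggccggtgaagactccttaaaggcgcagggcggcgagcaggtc
Hspa1b, chr17:34959239-34959488, minus strand: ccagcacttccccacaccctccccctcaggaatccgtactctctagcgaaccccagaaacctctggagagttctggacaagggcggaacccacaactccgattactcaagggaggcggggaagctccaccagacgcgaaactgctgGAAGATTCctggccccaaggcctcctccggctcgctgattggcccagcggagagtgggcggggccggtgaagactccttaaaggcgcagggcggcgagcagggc
Hspe1, chr1:55087898-55088147, plus strand: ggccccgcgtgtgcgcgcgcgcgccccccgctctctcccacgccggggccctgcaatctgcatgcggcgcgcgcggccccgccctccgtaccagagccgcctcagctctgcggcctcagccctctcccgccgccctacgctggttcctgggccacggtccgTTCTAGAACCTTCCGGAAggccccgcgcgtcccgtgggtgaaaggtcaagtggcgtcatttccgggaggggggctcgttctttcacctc
Hsph1, chr5:149636337-149636586, minus strand: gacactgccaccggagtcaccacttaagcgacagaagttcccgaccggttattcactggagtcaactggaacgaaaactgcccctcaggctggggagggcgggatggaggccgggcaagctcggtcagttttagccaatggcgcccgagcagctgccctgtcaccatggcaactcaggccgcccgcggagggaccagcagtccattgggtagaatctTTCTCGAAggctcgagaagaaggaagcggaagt
The Hspa1a and Hspa1b promoters were identical at 247 of 250 aligned positions (98.8%), with 1 unbroken identical run of 201 bases, and both held 1 core of 2 units at the same place, position -104 from the start. That of Hspe1 held 3 overlapping cores, which joined into 2 overlapping matches to the longer core of 3 units (the same letters with 1 more unit in alternation, so that each contains cores of 2 units). The same stretch was read from the other strand in the second listed promoter of Hspd1, which lies head to head with Hspe1 on chromosome 1. Dnajb6 was the third and last member with the longer core.

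RefSeq promoters were matched for 68 of the 81 members by symbol, and Hspa8 and Hsp90aa1 were not among them. A core of 2 units stood in 15 of these 68 genes (22.1%) and in 14.5% of all 27025 genes of the promoter table, and a core of 3 units in 3 members (4.41%) and in 0.514% of all genes. Hspd1 and Hspe1 are each counted although they share the same stretch, as are Hspa1a and Hspa1b with their near-identical promoters. Among members above the expression limit, the 14 with a core of 2 units had a median difference of 0.08 between KO and WT TFR cells, with a range of -0.17 to 1.38, and the 45 without one had a median of 0.01, with a range of -0.60 to 0.45. In non-TFR cells the medians were 0.055 with a core, with a range of -0.31 to 0.87, and -0.01 without, with a range of -0.48 to 0.72. Bag3, without a core, was the top of the latter range. Hspa1a and Hspa1b were the top of the range with a core. Of the other members with a core, Dnajc10 (0.48) and Hspb6 (0.30) were among those higher in KO TFR cells. Hspb1 (0.52), Dnaja4 (0.37) and Hspb6 (0.27) were among those higher in KO non-TFR cells, and Dnajb4 was lower in both (-0.17 and -0.31). In each population 9 of the 14 were higher and 5 lower in KO. Of the 45 without a core, 24 were higher and 21 lower in KO TFR cells, and 21 and 24 in KO non-TFR cells. The 3 members with the longer core spanned only -0.07 to 0.21 in TFR cells and -0.02 to 0.21 in non-TFR cells. A match describes these letters and is not a measured binding site.

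The stress-inducible Hsp70 genes Hspa1a and Hspa1b had the highest genotype differences of all members in TFR cells. The level of Hspa1a stood at 13.19 in KO and 11.81 in WT TFR cells, and at 13.53 in KO and 12.66 in WT non-TFR cells. It was 1.38 higher in KO than in WT TFR cells (2.60-fold) and 0.87 higher in KO than in WT non-TFR cells (1.83-fold). Hspa1b lay at 11.69 in KO and 10.60 in WT TFR cells, and at 12.54 in KO and 11.83 in WT non-TFR cells, a KO minus WT difference of 1.09 in TFR cells (2.12-fold) and of 0.71 in non-TFR cells (1.63-fold). Both genes were lowest on the WT TFR array and highest on the KO non-TFR array. The probe annotated to both genes, which was left out of the gene values, had KO minus WT differences of 0.78 in TFR and 1.28 in non-TFR cells, so that the probes disagree on which population had the wider difference. Their proteins are near-identical, as are the transcripts, so signal from one can reach the probe of the other and they are not a pair of independent observations. The highest value of any probe before normalization was 13.8, so that the KO levels of Hspa1a stood near the top of the scale, where differences can be compressed.

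Among 11090 genes above the expression limit, Hspa1a ranked 13 and Hspa1b ranked 35 from the highest difference between KO and WT TFR cells. At least 2-fold higher in KO TFR cells were 2 of 70 members (Hspa1a and Hspa1b), where 0.442% of all genes were, and at least 2-fold lower were 0 members and 0.234% of all genes. At the lower limit of 1.5-fold the members higher in KO TFR cells were again these 2, beside 2.16% of all genes, and those lower were Dnajc8 and Dnajc30, beside 1.56% of all genes. In non-TFR cells no member reached 2-fold, where 0.775% of all genes were higher and 0.126% lower. At 1.5-fold, Hspa1a (rank 123), Bag3 (rank 225) and Hspa1b (rank 243) were higher, which is 3 of 70 members beside 3.69% of all genes, and no member was lower, beside 1.09%.

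A fit of genotype and population together on the 4 arrays, with limma over all 11090 genes above the limit, leaves 1 residual degree of freedom. It takes the genotype difference to be the same in both populations. Its error joins the departure of a gene from that with a variance pooled over all genes, and is not a spread between replicates. The pooled part weighs more, with 4.76 degrees of freedom against 1. The fit was added after the data had been seen. By this fit KO minus WT was 1.13 ± 0.15 for Hspa1a (SE; limma adjusted p = 0.106 over all genes) and 0.90 ± 0.13 for Hspa1b (adjusted p = 0.119), and 0.34 ± 0.19 for Bag3 (adjusted p = 0.538). The adjusted p of Hspa1a lay between 0.0289 and 0.165, and that of Hspa1b between 0.0343 and 0.165, over 5 scalings, and both passed 0.05 on the values as deposited and with quantile normalization of the single-symbol probes alone. At an adjusted p under 0.05, 0 of 70 members differed between the genotypes, beside 0.00902% of all genes, which was Il23r alone, a cytokine receptor gene named after its value was seen. Unadjusted, 10 members (14.3%) and 12.6% of all genes had a p under 0.05.

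**Figure D1:**
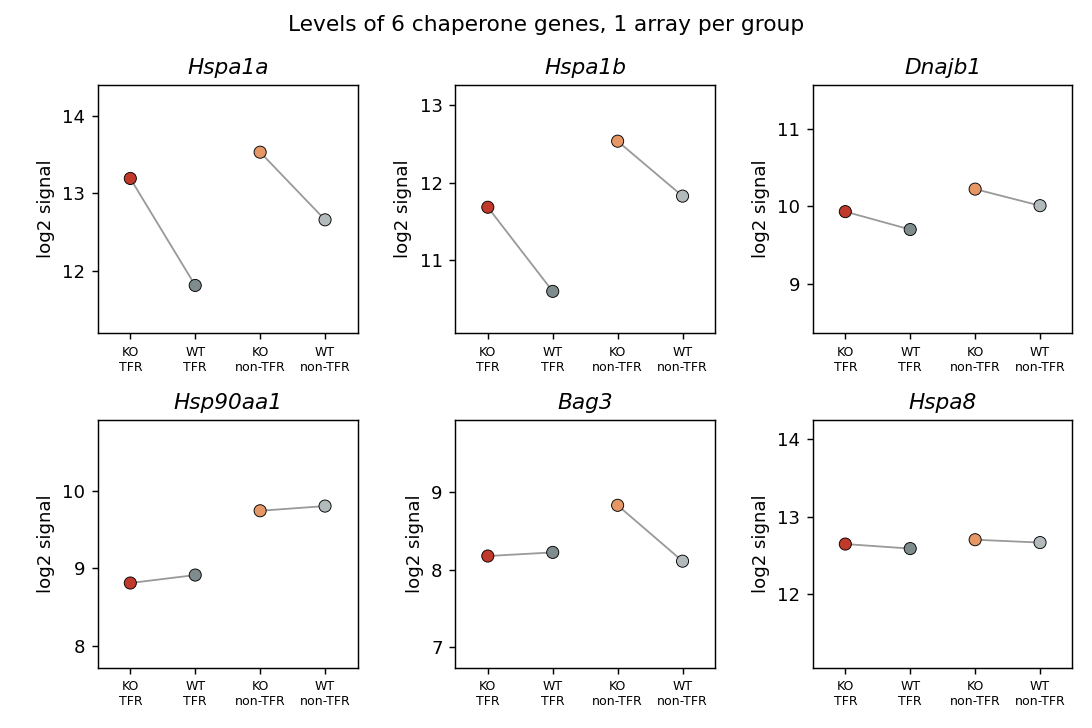
Log2 signal (y axis, the same span in every panel) of 6 genes on the 4 arrays (x axis; 1 point per array, lines join KO and WT of the same population, no error bars because there are no replicates). Hspa1a and Hspa1b are higher in KO than in WT in both populations, Hsp90aa1 separates TFR from non-TFR cells, Bag3 is high on the KO non-TFR array, and the brightest probe of Hspa8 differs by no more than 0.08.

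Between KO and WT TFR cells 56 of 70 members differed by less than 0.25 in size, as did 8135 of 11090 genes, and between KO and WT non-TFR cells 54 members and 8023 genes did. Over the 70 members the median difference was 0.04 in TFR cells, with 39 higher and 31 lower in KO, and -0.01 in non-TFR cells, with 34 higher and 36 lower. The median of all genes above the limit was 0.02 in TFR cells and 0.03 in non-TFR cells. Without Hspa1a and Hspa1b the members ranged from -0.60 to 0.48 in TFR cells and from -0.48 to 0.72 in non-TFR cells. The sign of the genotype difference was the same in both populations for 43 of 70 members (61.4%) and for 59.5% of all genes, so that the members were near the background. Across the members the differences in the 2 populations, which share no array, had a Pearson r of 0.57, which was 0.325 without Hspa1a and Hspa1b and 0.351 over all genes. The points of these correlations are genes on the same 4 arrays, not replicates.

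**Figure D2:**
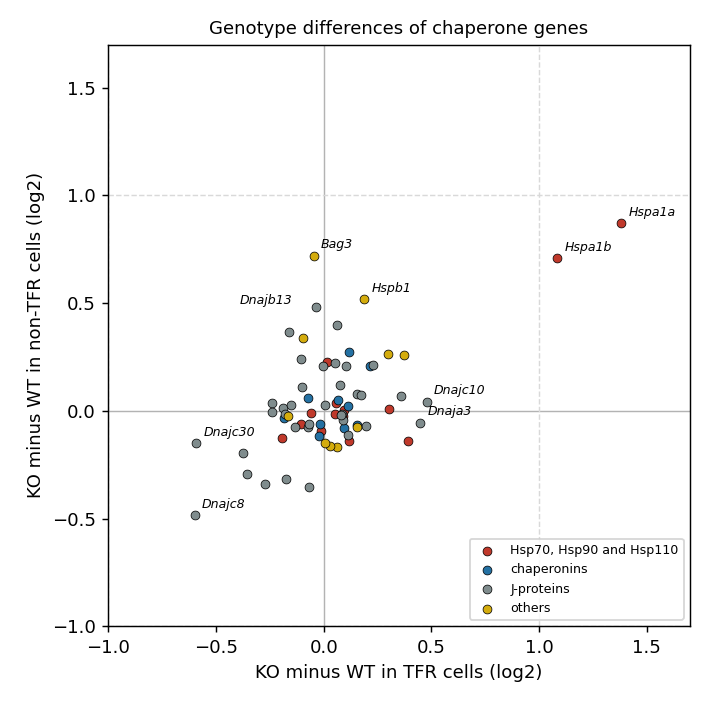
KO minus WT difference of the 70 members above the expression limit in TFR cells (x axis, log2) against non-TFR cells (y axis, log2), 1 point per gene, coloured by family; dashed lines mark 2-fold. Hspa1a (1.38 and 0.87) and Hspa1b (1.09 and 0.71) stand apart at the upper right, and most other members lie close to 0.

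The constitutive members of the cytosolic Hsp70 family differed less between the genotypes than the inducible pair. Hspa8, the constitutive Hsp70 of all cells, stood at 12.65 in KO and 12.59 in WT TFR cells, and at 12.71 in KO and 12.67 in WT non-TFR cells, with no difference above 0.08 in size on this, its brightest probe. Its 3 dimmer probes differed more: 1 was at 7.88 in KO and 8.20 in WT TFR cells, a difference of -0.32, and the other 2, which carried identical values, were 0.25 higher on the KO TFR than on the KO non-TFR array. Hspa2, best known from the testis, was at 7.64 in KO and 7.34 in WT TFR cells, and at 7.90 in KO and 7.89 in WT non-TFR cells, with a KO minus WT difference of 0.30 in TFR and 0.01 in non-TFR cells. Hspa2 shared the low WT TFR level of the inducible pair, at a smaller size. Hspa14, a ribosome-associated Hsp70, lay at 8.74 in KO and 8.76 in WT TFR cells, and at 8.51 in KO and 8.61 in WT non-TFR cells. Hspa1l, the neighbour of the inducible pair on chromosome 17, lay below the expression limit, at 4.63 in KO and 4.54 in WT TFR cells, and at 4.58 in KO and 4.49 in WT non-TFR cells. Its second probe was also below the limit, at 4.97 in KO and 4.03 in WT TFR cells, and the probes of this gene therefore disagree.

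In the comparison of the populations the inducible pair was lower on the TFR array of either genotype. Hspa1a differed by -0.85 in WT mice (1.80-fold lower in TFR cells) and by -0.34 in KO mice (1.26-fold lower). Hspa1b differed by -1.23 in WT (2.34-fold lower) and by -0.85 in KO mice (1.80-fold lower). Hspa1b in WT mice was the single member at least 2-fold lower in TFR cells, 1 of 70 beside 1.36% of all genes, and 0 members were at least 2-fold higher, beside 4.13% of all genes. In KO mice no member was 2-fold apart, where 3.03% of all genes were higher and 1.37% lower. The genotype comparison in TFR cells and the population comparison in WT mice share the WT TFR array, so that its low Hspa1a and Hspa1b values enter both.

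At 1.5-fold, Dnajc1 and Dnajb13 were higher in WT TFR than in WT non-TFR cells (2 of 70, beside 10.3% of all genes), and Hspa1b, Hsp90aa1, Hspa1a and Dnajb9 were lower (4 of 70, beside 5.76%). In KO mice 0 members were higher, beside 8.54% of all genes, and Hsp90aa1, Hspa1b, Bag3, Dnajc30 and Dnajc25 were lower, which is 5 of 70 beside 6.2%. The median over the members was -0.02 in WT mice, with 33 higher and 37 lower, and 0.03 in KO mice, with 36 higher and 34 lower, against 0.02 and 0.01 over all genes. On the values as deposited the split was 43 higher and 27 lower in both genotypes, on a scale where the medians of all genes were 0.13 in WT and 0.14 in KO mice. The direction was the same in both genotypes for 61 of 70 members (87.1%) and for 76.4% of all genes, and r was 0.736 over the members and 0.802 over all genes. These 2 comparisons share no array.

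In the same fit over the 4 arrays, 21.9% of all 11090 genes passed a limma adjusted p of 0.05 between the populations. Of these genes 1425 were higher and 1004 lower in TFR cells. Among the 70 members 9 passed. Lower in TFR cells were 8 of them, namely Hsp90aa1 (TFR minus non-TFR -0.91 ± 0.11, SE; adjusted p = 0.00569), Hspa1b (-1.04 ± 0.13; adjusted p = 0.00711), Hspa1a (-0.59 ± 0.15; adjusted p = 0.0433), Dnajb9, Dnajc6, Cct4, Dnajb2 and Dnajc25. Dnajc1 was the only member higher (0.63 ± 0.11; adjusted p = 0.0179). Over the 5 scalings the adjusted p of Hsp90aa1 lay between 0.00135 and 0.00945, that of Hspa1b between 0.00166 and 0.0101, that of Hspa1a between 0.0173 and 0.0433 and that of Dnajc1 between 0.00437 and 0.0227. Cct4, Dnajb2 and Dnajc25 did not pass on the values as deposited, and Dnajc25 did not with cyclic loess. The split of 1 member higher and 8 lower was 11 higher and 5 lower on the values as deposited. On that scale 2505 of all genes were higher and 748 lower.

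**Figure D3:**
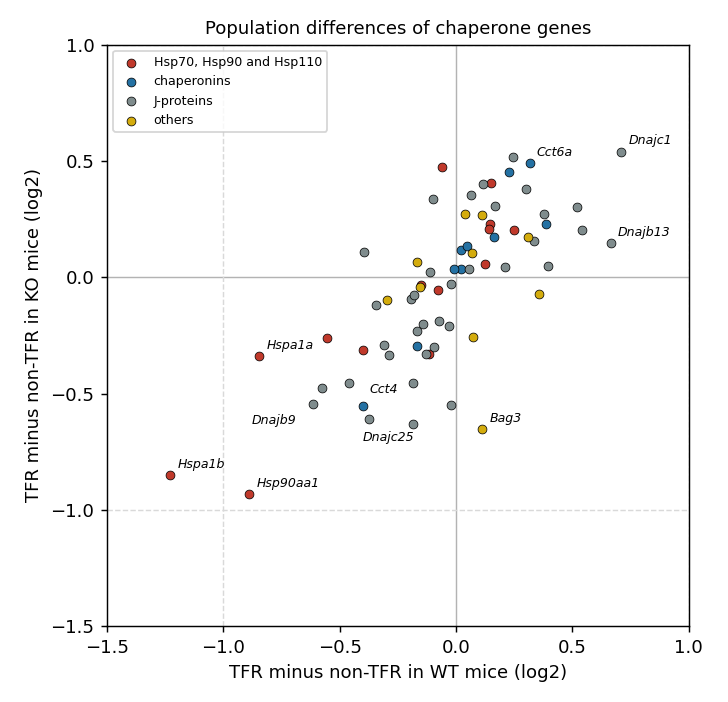
TFR minus non-TFR difference of the 70 members in WT mice (x axis, log2) against KO mice (y axis, log2), 1 point per gene, coloured by family; dashed lines mark 2-fold. Hspa1b and Hsp90aa1 are lowest in both genotypes, Dnajc1 is highest in both, and Bag3 lies low in KO mice only.

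Immediate early genes, which like the inducible Hsp70 genes can respond to activation and to handling of cells, are given beside these values. Of 14 listed genes 13 lay above the expression limit. In KO TFR cells 10 of these 13 were lower than in WT TFR cells, 2 were higher and 1 was level, with a median of -0.25. In KO non-TFR cells 10 were lower and 3 higher, with a median of -0.07, and 11 of the 13 differed by less than 0.25. Of all 11090 genes above the limit, 5114 were lower in KO TFR and 4900 in KO non-TFR cells. Hspa1a and Hspa1b, higher in KO in both populations, differed in sign from most of this list, whose differences in non-TFR cells were mostly small. Nr4a1 differed by -0.98 in TFR and -0.59 in non-TFR cells. The part of activation or handling in the genotype differences was not tested. Between the populations 12 of 13 were lower in TFR cells in WT mice (median -0.31) and 12 of 13 in KO mice (median -0.49), among them Ier2 (-0.69 and -0.99), Btg2 (-0.73 and -0.97) and Egr1 (-0.78 and -0.61). Of all genes above the limit, 5267 were lower in TFR cells in WT mice and 5364 in KO mice. The inducible pair and most of this list were thus both lower in TFR cells, and the part of activation or handling in that difference was not tested.

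Dnajb1 and Hsph1, the other heat shock targets named above, differed less between the genotypes than the inducible pair. They are examples and not all targets of that response. Bag3 and Hspb1, given next, had KO minus WT differences of -0.05 and 0.19 in TFR cells and of 0.72 and 0.52 in non-TFR cells. Dnajb1, the J-protein that works with the inducible Hsp70 proteins, was at 9.93 in KO and 9.70 in WT TFR cells, and at 10.22 in KO and 10.01 in WT non-TFR cells. The order of its arrays was that of Hspa1b, with smaller KO minus WT differences of 0.23 and 0.21 and TFR minus non-TFR differences of -0.31 in WT and -0.29 in KO mice. Hsph1, an Hsp110 exchange factor and a heat shock target, stood at 11.02 in KO and 10.96 in WT TFR cells, and at 10.81 in KO and 10.82 in WT non-TFR cells. It was level between genotypes (0.05 and -0.01) and slightly higher in TFR cells of WT (0.14) and KO mice (0.21). Its promoter, printed above, holds a core of 2 units at position -33. The promoters listed for Dnajb1 hold no such core.

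Bag3, a BAG-family exchange factor that directs Hsp70 clients to autophagy, was high on 1 array. Its level was at 8.17 in KO and 8.22 in WT TFR cells, and at 8.83 in KO and 8.11 in WT non-TFR cells. The KO minus WT difference was -0.05 in TFR cells and 0.72 (1.65-fold) in non-TFR cells, and TFR cells differed from non-TFR cells by 0.11 in WT and -0.65 in KO mice. The KO non-TFR array is shared by both larger differences, and the genotype difference in TFR cells minus that in non-TFR cells was -0.77. Hspb1, a small heat shock protein that binds unfolding proteins without ATP, was also highest there, at 6.96 in KO and 6.78 in WT TFR cells, and at 7.22 in KO and 6.70 in WT non-TFR cells, and 0.52 higher in KO than in WT non-TFR cells, although this was 0.21 when all probes of the gene were averaged. Dnaja4, a cytosolic J-protein, was highest on the same array as well, at 6.80 in KO and 6.96 in WT TFR cells, and at 7.35 in KO and 6.98 in WT non-TFR cells.

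Hsp90aa1, the inducible cytosolic Hsp90, separated the populations and not the genotypes. Its level was at 8.81 in KO and 8.91 in WT TFR cells, and at 9.74 in KO and 9.80 in WT non-TFR cells. Both TFR arrays lay below both non-TFR arrays, with differences of -0.89 in WT (1.85-fold lower) and -0.93 in KO mice (1.91-fold lower), and the KO minus WT differences were -0.10 and -0.06. In KO mice Hsp90aa1 had the lowest population difference of all members, and in WT mice it was second to Hspa1b. Hsp90b1, the Hsp90 of the endoplasmic reticulum, stood at 11.76 in KO and 11.96 in WT TFR cells, and at 11.71 in KO and 11.83 in WT non-TFR cells and differed by no more than 0.19 in size in any comparison.

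Stip1, Ahsa1 and Hspbp1, which are partners of Hsp90 or Hsp70, differed by 0.31 or less in size. Stip1, which bridges Hsp70 and Hsp90, was at 10.86 in KO and 10.86 in WT TFR cells, and at 10.60 in KO and 10.74 in WT non-TFR cells. Ahsa1, which stimulates the ATPase of Hsp90, was at 9.95 in KO and 9.89 in WT TFR cells, and at 9.68 in KO and 9.85 in WT non-TFR cells. Hspbp1, an exchange factor of Hsp70, was at 9.14 in KO and 9.31 in WT TFR cells, and at 8.97 in KO and 9.00 in WT non-TFR cells, and was 0.31 higher in TFR cells of WT and 0.17 higher in those of KO mice. Over all genes above the limit the median size of a difference between the populations was 0.25 in WT and 0.24 in KO mice. Hsf2, a heat shock transcription factor, was at 6.92 in KO and 7.01 in WT TFR cells, and at 6.99 in KO and 6.65 in WT non-TFR cells, lower on the WT non-TFR array than on the other arrays. Of the other Hsp110 proteins, Hspa4 was at 10.67 in KO and 10.58 in WT TFR cells, and at 10.70 in KO and 10.72 in WT non-TFR cells. For Hspa4l the level was at 8.51 in KO and 8.50 in WT TFR cells, and at 8.84 in KO and 8.61 in WT non-TFR cells, and its widest difference was -0.33, between TFR and non-TFR cells of KO mice.

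Other genes of protein folding and its control, outside the members, are given beside the members. They include co-chaperones such as Cdc37, St13 and Fkbp4, the prefoldins and the Hsp90 paralogue Trap1. The list also holds genes that are not co-chaperones, such as the mitochondrial proteases Lonp1 and Clpp and the transcription factor Hsf4. In non-TFR cells Clpp (-0.47) and Lonp1 (-0.42) were among the genes lower in KO. Of 37 listed genes 35 were measured and 33 lay above the expression limit, and none was 2-fold apart in any comparison. Between KO and WT TFR cells 12 were higher and 21 lower (median -0.06), and between KO and WT non-TFR cells 8 were higher and 25 lower (median -0.07). Of all 11090 genes above the limit, 5967 were higher and 5114 lower in KO TFR cells, and 6181 higher and 4900 lower in KO non-TFR cells. Between TFR and non-TFR cells 17 were higher and 16 lower in WT mice (median 0.04), and 20 higher and 13 lower in KO mice (median 0.10). Ppid, a cyclophilin that binds Hsp90, had the highest population difference of the list, 0.78 in WT and 0.70 in KO mice, in the direction opposite to Hsp90aa1. Bag4, another BAG protein, was 0.63 and 0.61 higher in TFR cells.

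The TRiC chaperonin is built of different subunits in equal number, and 8 of its genes lay above the expression limit. Between the genotypes the TRiC genes differed by -0.19 to 0.16 in TFR cells and by -0.12 to 0.27 in non-TFR cells on their brightest probes. A dimmer probe of Cct6a was at 6.79 in KO and 7.09 in WT TFR cells, a difference of -0.31, against 0.10 on its brightest. In KO TFR cells 5 of 8 were higher than in WT TFR cells, a count that was 3 with the mean of all probes and 7 with cyclic loess, and in non-TFR cells 3 of 8 were higher. Cct2, Cct5, Cct7 and Cct8 were almost level: Cct2 was at 11.71 in KO and 11.64 in WT TFR cells, and at 11.68 in KO and 11.63 in WT non-TFR cells, and Cct5 was at 11.42 in KO and 11.44 in WT TFR cells, and at 11.39 in KO and 11.45 in WT non-TFR cells. No comparison of these genes exceeded 0.14 in size. Cct7 stood at 11.41 in KO and 11.43 in WT TFR cells, and at 11.29 in KO and 11.41 in WT non-TFR cells, and Cct8 at 10.72 in KO and 10.61 in WT TFR cells, and at 10.58 in KO and 10.56 in WT non-TFR cells.

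Between the populations 7 of 8 TRiC genes were higher in KO TFR than in KO non-TFR cells, or 5 of 8 with centring on the 75th percentile. In WT TFR cells 6 of 8 were higher, or 5 to 7 under the other scalings. Of all 11090 genes above the limit, 5724 were higher in TFR cells of KO and 5816 in those of WT mice. Some of the higher TRiC genes were almost level, namely Cct2 (0.035) and Cct5 (0.036) in KO mice and Cct2 (0.02) and Cct7 (0.02) in WT mice. Cct6a was highest among the TRiC genes in KO mice. Its level was at 9.68 in KO and 9.58 in WT TFR cells, and at 9.19 in KO and 9.27 in WT non-TFR cells. Cct3 stood at 9.19 in KO and 9.04 in WT TFR cells, and at 8.74 in KO and 8.81 in WT non-TFR cells, and Tcp1 at 10.23 in KO and 10.12 in WT TFR cells, and at 10.00 in KO and 9.73 in WT non-TFR cells. All 3 were higher on the TFR array of both genotypes. Cct4 went the other way. It lay at 9.07 in KO and 9.25 in WT TFR cells, and at 9.62 in KO and 9.66 in WT non-TFR cells, with TFR minus non-TFR differences of -0.40 in WT and -0.55 in KO mice. Cct6b, a subunit gene best known from testis, was below the expression limit.

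The mitochondrial chaperonin genes Hspd1 and Hspe1, which share a promoter region with 2 matches to the longer heat shock core, differed by 0.30 or less in size. Hspd1 was at 8.95 in KO and 8.74 in WT TFR cells, and at 8.78 in KO and 8.57 in WT non-TFR cells, and slightly higher in KO than in WT of both populations (0.21 each). Hspe1 was at 10.28 in KO and 10.36 in WT TFR cells, and at 10.58 in KO and 10.52 in WT non-TFR cells. Hspa9, the mitochondrial Hsp70, was at 10.30 in KO and 10.18 in WT TFR cells, and at 9.89 in KO and 10.03 in WT non-TFR cells, and 0.41 higher on the TFR array in KO mice, against 0.15 in WT mice. Among mitochondrial J-proteins, Dnaja3, which assists Hspa9, was at 7.64 in KO and 7.20 in WT TFR cells, and at 7.54 in KO and 7.59 in WT non-TFR cells. Its low level was thus on the WT TFR array, with the other arrays close together. Dnajc15, of the mitochondrial inner membrane, was at 9.67 in KO and 10.03 in WT TFR cells, and at 9.90 in KO and 10.19 in WT non-TFR cells, lower in KO of both populations (-0.36 and -0.29). Dnajc30, also mitochondrial, was at 6.72 in KO and 7.31 in WT TFR cells, and at 7.35 in KO and 7.50 in WT non-TFR cells, lowest on the KO TFR array.

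Chaperones of the endoplasmic reticulum did not all differ in 1 direction between the populations. Hspa5 (BiP), the Hsp70 of that compartment, was at 11.23 in KO and 11.13 in WT TFR cells, and at 11.54 in KO and 11.53 in WT non-TFR cells, lower in TFR cells of WT (-0.40) and KO mice (-0.31). Dnajb9, a J-protein that restrains the sensor Ire1, was at 11.27 in KO and 11.54 in WT TFR cells, and at 11.82 in KO and 12.16 in WT non-TFR cells, also lower in TFR cells (-0.61 and -0.55) and lower in KO of both populations (-0.27 and -0.34). Dnajc3, a J-protein that inhibits the kinase PERK, was likewise lower in TFR cells (-0.29 and -0.34).

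Other genes of this compartment were higher in TFR cells of 1 or both genotypes. Dnajc1, a membrane J-protein that can recruit Hspa5 to ribosomes, was at 9.68 in KO and 9.63 in WT TFR cells, and at 9.14 in KO and 8.91 in WT non-TFR cells and had the highest population difference of all members in both genotypes (0.71 in WT and 0.54 in KO mice). Dnajb11, a soluble partner of Hspa5, was 0.34 higher in WT and 0.16 higher in KO TFR cells. Dnajc10, a reductase that breaks disulphide bonds, was at 8.99 in KO and 8.52 in WT TFR cells, and at 8.66 in KO and 8.61 in WT non-TFR cells. Hspa13, a microsomal Hsp70, was at 7.68 in KO and 7.29 in WT TFR cells, and at 7.21 in KO and 7.35 in WT non-TFR cells. Both were highest on the KO TFR array, 0.48 and 0.39 above the WT TFR array, and in KO mice 0.34 and 0.47 above the non-TFR array, whereas the WT values were -0.10 and -0.06.

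Of the J-proteins, 36 lay above the expression limit, and no J-protein was 2-fold apart in any comparison. In TFR cells 16 were higher and 20 lower in KO than in WT (median -0.05), and in non-TFR cells 18 were higher and 18 lower (median below 0.01). Dnajc8, associated with pre-mRNA splicing, had the lowest genotype difference of all members in both populations, with levels at 9.70 in KO and 10.30 in WT TFR cells, and at 9.89 in KO and 10.37 in WT non-TFR cells. The KO minus WT difference was -0.60 in TFR and -0.48 in non-TFR cells. After Dnajc30, Dnajc21, needed for ribosome assembly, was next lowest in TFR cells, at 8.69 in KO and 9.07 in WT TFR cells, and at 8.90 in KO and 9.10 in WT non-TFR cells. Dnajc9, a histone-binding J-protein, was at 9.93 in KO and 10.00 in WT TFR cells, and at 9.53 in KO and 9.88 in WT non-TFR cells. It was next lowest after Dnajc8 in non-TFR cells, with a KO minus WT difference of -0.35. Dnajb4, a cytosolic J-protein, was at 7.15 in KO and 7.32 in WT TFR cells, and at 6.84 in KO and 7.15 in WT non-TFR cells, and lower in KO of both populations.

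The J-proteins with the highest values in KO were Dnajc10, Dnaja3, Dnajc13 and Dnajb1 in TFR cells and Dnajb13, Dnajc18, Dnaja4 and Dnajb14 in non-TFR cells, and no difference between those genotype differences was tested. Dnajc13, of endosomes, was at 9.08 in KO and 8.72 in WT TFR cells, and at 8.73 in KO and 8.66 in WT non-TFR cells. Dnajb13, of cilia and sperm tails, was at 7.95 in KO and 7.99 in WT TFR cells, and at 7.81 in KO and 7.33 in WT non-TFR cells, and Dnajc18, whose role is less known, at 7.04 in KO and 6.98 in WT TFR cells, and at 6.84 in KO and 6.44 in WT non-TFR cells. These last 2 were lowest on the WT non-TFR array, which enters both their genotype and their population difference. Dnajb14, of the endoplasmic reticulum membrane, was at 7.20 in KO and 7.30 in WT TFR cells, and at 7.15 in KO and 6.91 in WT non-TFR cells. With the mean of all its probes, the difference of Dnajb14 between KO and WT TFR cells was 0.18 in place of -0.11, and that between WT TFR and WT non-TFR cells -0.19 in place of 0.39. No member had genotype differences of opposite sign with both at least 0.5 in size.

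Between the populations 14 J-proteins were higher and 22 lower in TFR cells of WT mice (median -0.08), and 17 higher and 19 lower in KO mice (median -0.05). On the values as deposited the WT split was 21 higher and 15 lower, so that the direction of the J-proteins as a group depended on the scaling. After Dnajc1 the highest in WT mice were Dnajb13, Dnajc18 and Dnajc16, and in KO mice Dnajb3, Dnajc9 and Dnajc12. Dnajc16 was at 7.54 in KO and 7.54 in WT TFR cells, and at 7.23 in KO and 7.02 in WT non-TFR cells. The level of Dnajb3 stood at 6.20 in KO and 6.00 in WT TFR cells, and at 5.69 in KO and 5.76 in WT non-TFR cells, and its mean of 5.91 lay at the expression limit, which it passed through its TFR arrays, so that nothing is read from its place. Dnajc12 was at 7.94 in KO and 7.78 in WT TFR cells, and at 7.56 in KO and 7.48 in WT non-TFR cells. In KO mice TFR cells were above non-TFR cells by 0.40 for Dnajc9 and 0.38 for Dnajc12.

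Several J-proteins were lower in TFR cells beside Dnajb9. Dnajc6, the auxilin that uncoats clathrin vesicles, was at 6.56 in KO and 6.39 in WT TFR cells, and at 7.04 in KO and 6.96 in WT non-TFR cells. Dnajb2, known from neurons, was at 6.90 in KO and 6.97 in WT TFR cells, and at 7.35 in KO and 7.43 in WT non-TFR cells, and Dnajc25 at 6.57 in KO and 6.82 in WT TFR cells, and at 7.19 in KO and 7.19 in WT non-TFR cells. Both TFR arrays lay below both non-TFR arrays for each of these 3 genes. Dnajc30 (-0.63 in KO and -0.19 in WT mice) and Dnaja4 (-0.55 and -0.02) were lower in TFR cells mainly in KO mice, whereas Dnaja3 was lower there in WT mice (-0.40, and 0.11 in KO mice).

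The J-proteins Dnaja2, Dnajb6, Dnajc7 and Dnajc5 differed by 0.35 or less in size. Dnaja2, a partner of Hspa8, was at 9.24 in KO and 9.43 in WT TFR cells, and at 9.57 in KO and 9.55 in WT non-TFR cells. Dnajb6, which suppresses protein aggregation and whose promoter holds the longer core, was at 8.88 in KO and 8.79 in WT TFR cells, and at 8.97 in KO and 8.99 in WT non-TFR cells. For Dnajc7, which links Hsp70 and Hsp90, the level was at 10.30 in KO and 10.18 in WT TFR cells, and at 10.42 in KO and 10.53 in WT non-TFR cells, and Dnajc5, the cysteine string protein of vesicles, was at 9.63 in KO and 9.55 in WT TFR cells, and at 9.70 in KO and 9.73 in WT non-TFR cells. Of these 4 genes the widest difference was that of Dnajc7 between the WT arrays (-0.35). The J-proteins above the limit not yet given were Dnajb5, Dnajb12, Dnajc2, Dnajc4, Dnajc11, Dnajc14, Dnajc24 and Dnajc27, whose differences lay between -0.46 (Dnajc2, KO TFR minus KO non-TFR) and 0.38 (Dnajc4, WT TFR minus WT non-TFR).

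Of the small heat shock genes 3 lay above the expression limit. Beside Hspb1 these were Hspb6, which stood at 7.39 in KO and 7.09 in WT TFR cells, and at 7.28 in KO and 7.02 in WT non-TFR cells and was 0.30 and 0.27 higher in KO than in WT, and Hspb9, best known from testis, at 6.50 in KO and 6.35 in WT TFR cells, and at 6.44 in KO and 6.52 in WT non-TFR cells. Hspb11, an intraflagellar transport protein, and Hspbap1, which binds Hspb1, are members by name. Hspbap1 was at 7.76 in KO and 7.38 in WT TFR cells, and at 7.80 in KO and 7.54 in WT non-TFR cells, and higher in KO of both populations. Hspb11 was at 7.63 in KO and 7.60 in WT TFR cells, and at 7.73 in KO and 7.90 in WT non-TFR cells. Hspa12b, an atypical Hsp70 of endothelium, lay just above the limit, at 6.16 in KO and 6.22 in WT TFR cells, and at 5.96 in KO and 5.97 in WT non-TFR cells. Below the limit were Cct6b, Dnajb7, Dnajc5b, Dnajc5g, Dnajc22, Dnajc28, Hspa1l, Hspa12a, Hspb3, Hspb7 and Hspb8, for which no fold is given because nothing shows whether they were above background.

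**Figure D4:**
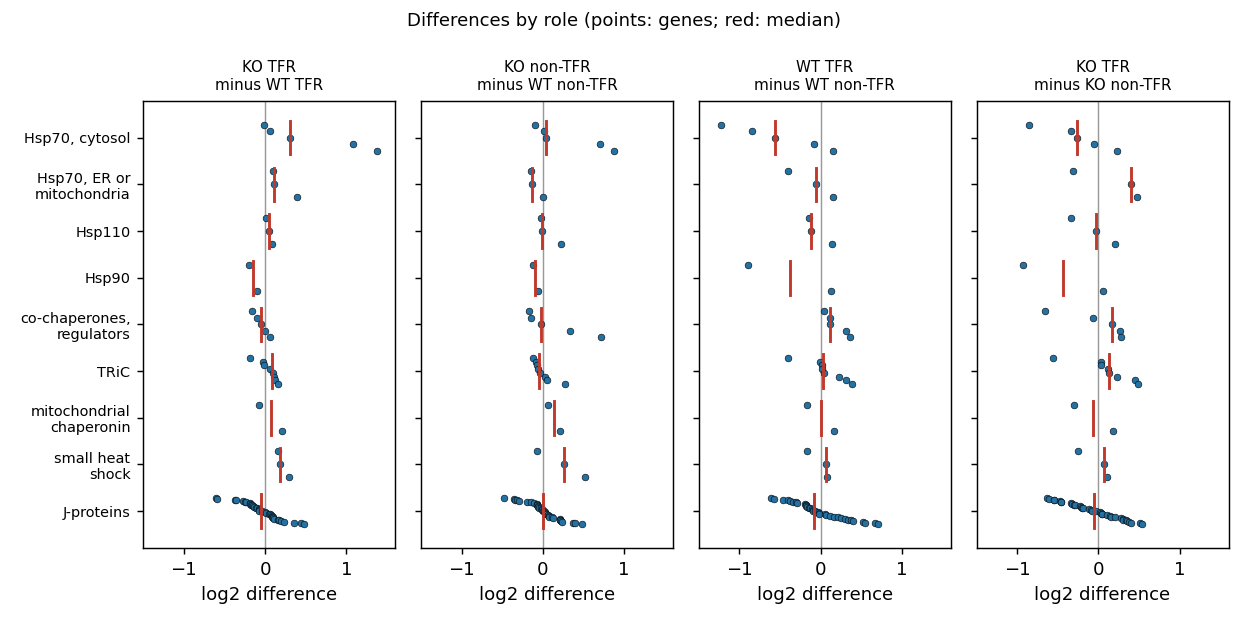
Log2 difference (x axis) of the members above the expression limit in the 4 comparisons (panels), grouped by role (rows; ER, endoplasmic reticulum); each point is 1 gene, red bars are group medians, and there are no error bars because there is 1 array per group. Hspa1a and Hspa1b lie far right in both KO minus WT panels of the cytosolic Hsp70 row, and TRiC and J-proteins centre near 0. Hspb11, Hspbap1 and Hspa12b are not drawn.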

How the data were processed

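RNA of 4 sorted cell populations was measured on 1 array each. The authors deposited log2 values per probe; the submitters' processing notes name MAS5 with neither version nor role, and how the deposited log2 values were scaled is not given in the sources used here. Their array medians were 5.68 in KO TFR, 5.69 in WT TFR, 5.58 in KO non-TFR and 5.58 in WT non-TFR cells. The 41345 probes were quantile normalized with limma 3.58.1 in R 4.3.3. Platform annotation gave 23521 probes 1 gene symbol, 1814 several and 16010 none, and symbols can be old.

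The brightest single-symbol probe by mean stood for a gene, and counts used genes above the median gene mean. Differences of a pair of arrays were called at 2-fold, or at 1.5-fold where stated; no test was run on them, and the small number of arrays limits precision. A limma fit of genotype and population over all genes above the limit, with Benjamini-Hochberg adjustment, was added after the data had been seen. The members, the lists of other genes of protein folding and its control, immediate early genes and cell type markers, and the alternatives were chosen with earlier results of these data known. Named with values were all members above the limit outside the J-proteins, and the 4 highest and 4 lowest J-proteins of each comparison. Promoters came from RefSeq tables (GRCm38.p6). Alternatives were other scalings, the mean of a gene's probes, other expression and fold limits, the mean in place of the median, and other member sets.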

Additional observations from a re-analysis of the deposited data

How the results depend on the processing

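No paired analysis was possible because the groups share fewer than 2 replicate numbers, and leaving out an array would remove its group. The fit of genotype and population, chosen after seeing the data, sets KO against WT with the population as a block. Between KO and WT, where it called 0 members, and 1 gene higher and 0 lower of all genes, it called 2 members higher (Hspa1a and Hspa1b), with 41 genes higher and 19 lower, on the values as deposited, and the same 2, with 49 higher and 29 lower, with quantile normalization of single-symbol probes, and 7 genes higher and 1 lower with centring on the 75th percentile. Between the populations it called 11 members higher and 5 lower on the values as deposited in place of 1 and 8. Over all genes it called 2505 higher in place of 1425 and 748 lower in place of 1004 on that scale. Counts of members at least 2-fold apart were the same under the other settings except for the lower fold limit: at 1.5-fold, 2 members were lower in KO than in WT TFR cells in place of 0, 3 were higher in KO than in WT non-TFR cells in place of 0, 2 were higher and 4 lower in WT TFR than in WT non-TFR cells in place of 0 and 1, and 5 were lower in KO TFR than in KO non-TFR cells in place of 0. Of 1400 values of single members under the alternatives, 1396 moved by 0.25 or less. The other 4 were 3 of Dnajb14 and 1 of Hspb1, all with the mean of a gene's probes. Under that setting only members with several probes could move, which were 7 of the 81, with Hspa1l among them below the limit. The count of 1396 therefore does not measure how far the values depend on the choice of probe. Signs changed in 62 values, 1 of them in a difference of at least 0.25 in size (Dnajb14 between WT TFR and WT non-TFR cells). The medians over the members lay near 0 and moved by less than 0.25, so that their sign could change. The values as deposited placed the median of all genes at 0.13 (WT) and 0.14 (KO) between TFR and non-TFR cells. Signal over background cannot be judged, since detection calls were not used here.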

Other observations

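A probe that the annotation assigns to both Hspa1a and Hspa1b, and that was therefore left out of the gene values, had a level of 7.29 in KO and 6.51 in WT TFR cells, and of 8.34 in KO and 7.06 in WT non-TFR cells. Its KO minus WT difference was 0.78 in TFR and 1.28 in non-TFR cells, and its TFR minus non-TFR difference was -0.56 in WT and -1.05 in KO mice. The signs were those of the single-symbol probes in all 4 comparisons, while the wider genotype difference was in non-TFR cells here and in TFR cells for the probes of Hspa1a and Hspa1b.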
